A study of Homo sapiens with 6 samples.

Results

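The genes described here carry the names given to proteins of the mitochondrial ribosome. They are the 69 gene names made of MRPL or MRPS and a number, with or without a closing letter, among the 13721 gene names of an exon annotation built from U-87 MG cells. There were 43 MRPL names, given to proteins of the large subunit, and 26 MRPS names, given to proteins of the small subunit. The name does not always give the place: MRPS18A and MRPS30 are found in the large subunit. Comparisons of MRPL with MRPS genes below go by name. U-87 MG is an established human malignant glioma line. Cells in DMEM with fetal bovine serum received DMSO, the vehicle (10 ul in 10 ml of medium), or 10 uM of EPZ015666, for 72 h. EPZ015666 blocks PRMT5, an enzyme that methylates arginines of splicing and other proteins. Each group had 3 libraries of poly(A)-selected RNA, and the labels do not say whether these came from separate cultures. The annotation covers both groups in 1 file, uses hg19 coordinates, and holds exon positions only, with 0 columns of values per library. No level, depth or replicate error can therefore be given, EPZ015666 was not compared with DMSO, and every value below describes a listed gene structure. The line's labelled identity could be checked only by whether genes were listed: 5 of 7 glioma and mesenchymal markers had an isoform (GFAP and SOX2 did not), as did 5 of 8 markers of other cell types, so the listing does not separate cell types.

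Mitochondria carry their own ribosomes, which translate the few mRNAs of mitochondrial DNA into core subunits of the respiratory chain and the ATP synthase. The ribosomal RNAs of these particles come from mitochondrial DNA, whereas all their proteins are encoded in the nucleus, made in the cytosol and imported. Some of these proteins descend from bacterial ribosomal proteins and others were added during the evolution of mitochondria. Genes of the respiratory chain and of mitochondrial translation are scattered over the nuclear chromosomes, and many promoters of such genes are known to bind NRF1, ETS family factors and YY1.

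The members were spread over 21 chromosomes, with 8 on chromosome 1, 7 each on chromosomes 2 and 11, and 6 on chromosome 6. They lay on the plus strand in 35 cases and on the minus strand in 34. Their 873 exon rows gave 150 isoforms as listed, of which 104 were distinct. The GENCODE v29 reference has 78 names of this form, and 69 of them were listed. For 2 of the other 9, all listed introns of another name had lengths found in the reference gene: 9 of 9 introns of RP11-552F3.12 for MRPL38, and 3 of 3 of URGCP-MRPS24 for MRPS24. The name ICT1, the older symbol of MRPL58, had 5 such introns of 6, and AP000320.7 had 2 of 4 for MRPS6. MRP63, a symbol of a mitochondrial ribosomal protein, was listed without an intron. Intron lengths could therefore not show whether it is 1 of these 9 under another symbol. The rule leaves these names out.

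Members often stood head to head with another gene. A head-to-head neighbour is a gene on the other strand that runs away from the member, with its listed 5′ end within 1000 bases of the member's. Such a neighbour was listed for 24 of 69 members (34.8%), against 1929 of all 13721 listed genes (14.1%). With the share of all genes at the same number of introns, 9.6 members would have one. The count was 16 of 43 MRPL genes (37.2%) and 8 of 26 MRPS genes (30.8%). Members marked as having a bacterial homolog had such a neighbour in 15 of 44 cases (34.1%), and the other members, MRPL47 among them, in 9 of 25 (36.0%). These marks were taken as given, with no protein sequences compared, so some may be wrong. These are descriptions of a list, with no test.

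The same count was close for other nuclear genes of mitochondrial function and lower for the cytosolic ribosome. Subunit genes of oxidative phosphorylation had a head-to-head neighbour in 22 of 70 cases (31.4%), and a list of further mitochondrial translation genes, such as elongation and release factors, in 14 of 41 (34.1%). That list also holds 7 proteins of the mitochondrial ribosome under other symbols (AURKAIP1, CHCHD1, DAP3, GADD45GIP1, ICT1, MRP63 and PTCD3), of which DAP3, MRP63 and PTCD3 had a neighbour. Without these 7 the count was 11 of 34 (32.4%). Genes of cytosolic ribosomal proteins had one in 14 of 83 cases (16.9%). Among the 34 translation genes, the elongation factor gene TUFM lay 281 bases from SH2B1, FASTKD2, an RNA-binding protein gene, lay 62 bases from MDH1B, and RPUSD4, a pseudouridine synthase gene, lay 32 bases from FAM118B. The difference from all listed genes was present at short distances too. Within 100 bases, 11 members (15.9%) had a neighbour, against 4.46% of all listed genes, and within 300 bases 18 members (26.1%) against 10.1%. Within 5000 bases it was 29 members (42.0%) against 18.2%.

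**Figure D1:**
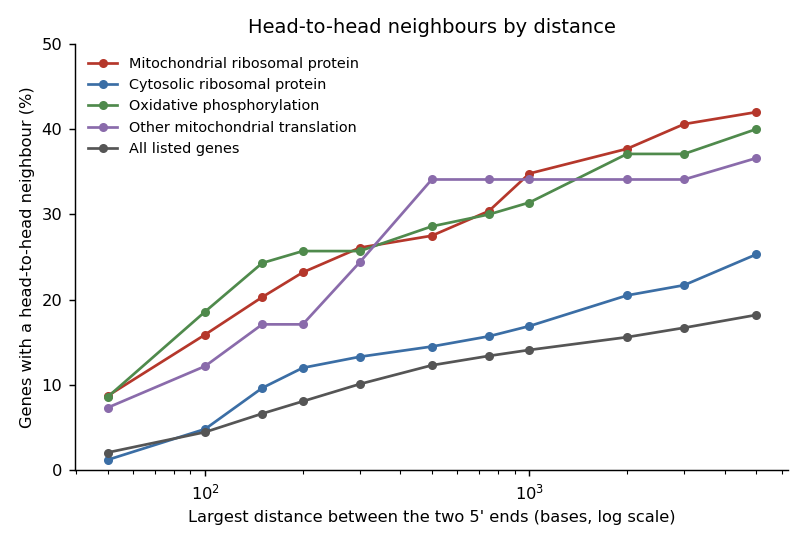
Share of genes (%) with a head-to-head neighbour, by the largest distance allowed between the listed 5′ ends (bases, log scale), for the 69 members, 3 lists of related genes and all 13721 listed genes. At 1000 bases the members are at 34.8%, oxidative phosphorylation genes at 31.4%, the list of other mitochondrial translation genes at 34.1%, cytosolic ribosomal protein genes at 16.9% and all listed genes at 14.1%.

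Most of these gaps were short. The median distance between the 5′ ends was 106 bases in the 24 members and 122 bases in the 1929 genes, and 16 of the 24 (66.7%) were within 200 bases, against 57.4% of the 1929. The members MRPL14, MRPL50, MRPS12 and MRPS34 were listed only as fragments of 200, 137, 44 and 341 bases, so their listed 5′ ends may not be transcription starts. In 2 members the ends overlapped. MRPL13 (chromosome 8, 121426230 to 121457647, minus strand) shared 9 bases with MTBP, the gene of an MDM2-binding protein. MRPL9 (chromosome 1, 151732120 to 151736040, minus strand) overlapped OAZ3, the gene of a testicular antizyme, by 595 bases.

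The closest pairs that did not overlap brought mitochondrial ribosomal proteins beside genes of many functions. MRPL21 (chromosome 11, 68658745 to 68671303, minus strand) started 16 bases from IGHMBP2, which encodes a helicase. MRPL27 (chromosome 17, 48445229 to 48450562, minus strand) started 19 bases from EME1, a partner of the MUS81 nuclease. MRPS34 (chromosome 16, 1822800 to 1823140, minus strand), listed only in part, started 89 bases from EME2, the paralog of EME1. A small and a large subunit gene thus each stood beside 1 of these paralogs. MRPL43 (chromosome 10, 102741134 to 102747272, minus strand) started 21 bases from C10orf2, the older symbol of TWNK, which encodes the helicase of mitochondrial DNA replication. MRPS7 (chromosome 17, 73257750 to 73262332, plus strand) started 42 bases from GGA3, a vesicle adaptor gene. MRPL49 (chromosome 11, 64889717 to 64894752, plus strand) started 44 bases from FAU, whose product carries a ribosomal protein of the cytosolic small subunit.

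The next pairs lay between 51 and 94 bases apart. MRPS11 (chromosome 15, 89010685 to 89021498, plus strand) started 51 bases from RP11-97O12.7, which had 1 of its 2 intron lengths in common with MRPL46. A single shared length does not identify it. MRPS12 (chromosome 19, 39421595 to 39421638, plus strand) started 58 bases from CTC-360G5.8, in which 14 of 14 distinct intron lengths were those of SARS2, the mitochondrial seryl-tRNA synthetase gene. The RefSeq starts of MRPS12 and SARS2 are 180 bases apart. MRPL10 (chromosome 17, 45900639 to 45908907, minus strand) started 86 bases from LRRC46, and MRPL37 (chromosome 1, 54665841 to 54682017, plus strand) 94 bases from CYB5RL.

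Between 100 and 500 bases lay MRPS27 with PTCD2 (118 bases), a mitochondrial RNA-binding protein gene, and MRPL32 with PSMA2 (134 bases), a proteasome subunit gene. MRPL47 and NDUFB5, a subunit gene of respiratory complex I, were 141 bases apart. MRPS18C and HELQ, a DNA helicase gene, were 174 bases apart, MRPL14 and TMEM63B 185, MRPL50 and ZNF189 217, MRPL30 and TSGA10 231, and MRPS18B and PPP1R10 402. The listed 5′ end of MRPL30 is in doubt, because its first 2 introns have the lengths of introns of LIPT1. The pair is kept among the 24. The widest gaps inside the limit were those of MRPS2 with C9orf116 (716 bases), MRPL18 with TCP1 (757 bases), a chaperonin subunit gene, MRPL51 with NCAPD2 (810 bases), a condensin subunit gene, and MRPL54 with APBA3 (992 bases). Just outside it were MRPL41 with PNPLA7 (1323 bases) and MRPL36 with NDUFS6 (1540 bases), another complex I gene. By listed name, 1 of the 24 neighbours (NDUFB5) was on the list of oxidative phosphorylation, 1 (FAU) on that of the cytosolic ribosome and 0 were other members. The name MRPL46 is not listed, and the neighbour of MRPS11 shared an intron length with that gene. The 0 therefore does not show that mitochondrial ribosomal protein genes never stand head to head with each other.

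**Figure D2:**
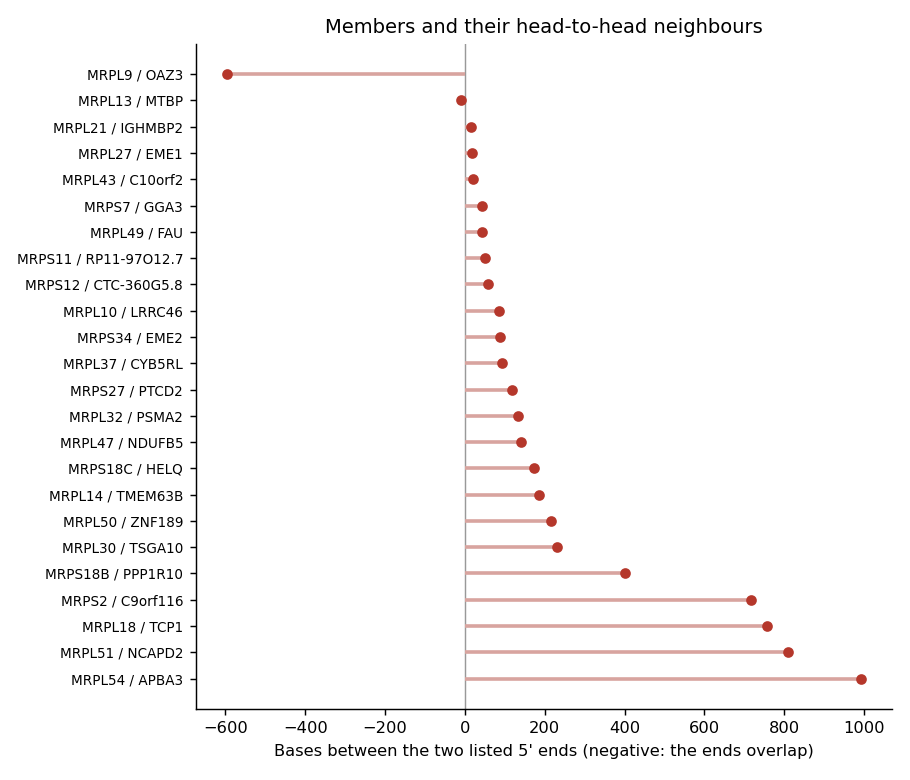
Bases between the listed 5′ ends of the 24 members and their head-to-head neighbours, sorted by distance, with negative values where the ends overlap. The points from MRPL13 to MRPL30 lie between -9 and 231 bases, and the tail runs to 992 bases in MRPL54.

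The listed ends depend on how the annotation was made, so the pairs were looked up in GENCODE v29. There 29 of 78 member names (37.2%) had a head-to-head protein-coding gene within 1000 bases, against 2581 of 19907 protein-coding genes (13.0%). Of the 24 listed pairs, 23 were found on opposite strands in the reference, 20 of them with ends within 1000 bases. The exact distances differed, since reference transcripts often start further upstream: MRPL49 and FAU overlapped by 291 bases there, and MRPL43 and TWNK by 149. For 4 members the reference had a neighbour within the limit where the listing had none: PELI3 for MRPL11, NDUFS6 for MRPL36 (33 bases), PNPLA7 for MRPL41 (664 bases) and SLC7A7 for MRPL52 (58 bases).

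For 10 of the pairs, RefSeq promoter windows (GRCh38.p14) held the whole stretch between both RefSeq starts, from 44 to 239 bases. Of these shared stretches, 6 are printed to show how little DNA lies between the genes and which letters it holds. Each reads 5′ to 3′ on the member's strand, with the neighbour's start at the left and the member's at the right. Capitals mark any of the 7 motifs searched on either strand, which are named for NRF1 (a core and a longer palindrome), ETS factors, YY1, CCAAT, SP1 and TATA and spelled out with their counts.
MRPL27 and EME1, chr17:50373185-50373228, minus strand: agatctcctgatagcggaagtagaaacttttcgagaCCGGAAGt
MRPL49 and FAU, chr11:65122135-65122182, plus strand: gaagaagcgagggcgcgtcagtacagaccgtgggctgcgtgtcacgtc
MRPS27 and PTCD2, chr5:72320241-72320372, minus strand: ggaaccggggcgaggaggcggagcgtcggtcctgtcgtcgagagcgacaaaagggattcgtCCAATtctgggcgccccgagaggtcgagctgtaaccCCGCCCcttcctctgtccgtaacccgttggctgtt
MRPL37 and CYB5RL, chr1:54200031-54200166, plus strand: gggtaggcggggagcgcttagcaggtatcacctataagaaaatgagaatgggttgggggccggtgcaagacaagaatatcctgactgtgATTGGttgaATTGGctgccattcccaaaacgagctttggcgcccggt
MRPS18C and HELQ, chr4:83455884-83456057, plus strand: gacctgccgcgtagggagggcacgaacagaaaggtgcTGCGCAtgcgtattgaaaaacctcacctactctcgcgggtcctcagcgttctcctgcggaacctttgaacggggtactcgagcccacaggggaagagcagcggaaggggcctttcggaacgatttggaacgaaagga
MRPS12 and SARS2, chr19:38930764-38930943, plus strand: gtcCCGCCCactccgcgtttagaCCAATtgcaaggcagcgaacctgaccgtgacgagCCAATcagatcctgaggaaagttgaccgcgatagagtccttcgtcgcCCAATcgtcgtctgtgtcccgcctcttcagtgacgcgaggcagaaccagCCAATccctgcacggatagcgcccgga
These 10 stretches held CCAAT letters in 6 cases, the SP1 letters in 5, the NRF1 core in 2, the ETS letters in 1 and the YY1 and TATA letters in 0. Stretches between other gene pairs were not counted, so these numbers have no background. The MRPS12 and SARS2 stretch held CCAAT 4 times, all in the direction of MRPS12. The MRPL49 and FAU stretch held none of the motifs. A match is a run of letters and no evidence of binding.

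Whole promoter windows ran from 250 bases before to 50 after the RefSeq start. In the YY1 and ETS letters the members' windows stood apart from all windows and from those of listed genes. Windows of oxidative phosphorylation genes and of other mitochondrial translation genes were not counted. RefSeq windows were matched by symbol for 60 of the 69 members (74 windows, since some genes have several, which can overlap). The YY1 letters AAGATGGC were in 27.0% of the 74 windows, against 2.89% of all 35116 windows and 4.44% of the 14692 windows of listed genes. The ETS letters CCGGAAG were in 37.8%, against 10.3% of all windows and 15.4% of those of listed genes. The 81 windows of cytosolic ribosomal protein genes had the ETS letters about as often (34.6%) and the YY1 letters less often (9.88%). The NRF1 core TGCGCA was in 18.9% of the members' windows and 21.0% of the cytosolic ribosomal windows, against 8.24% of all and 11.3% of those of listed genes. A longer NRF1 palindrome of 10 bases, which can overlap the core, was in 1.35%, against 1.24% of all and 1.83% of those of listed genes.

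The general promoter elements did not stand apart in this way. CCAAT letters were in 36.5% of the members' windows, 34.6% of all and 34.5% of those of listed genes. The SP1 letters GGGCGG were in 62.2%, against 45.0% of all and 63.7% of the windows of listed genes. The TATA letters TATAAA were in 4.05%, against 11.5% of all and 6.77% of those of listed genes. The median GC content was 60.3% in the members' windows and 64.3% in those of listed genes, and its part in the motif shares was not tested. The 29 windows of members with a head-to-head neighbour held CCAAT in 51.7%, ETS letters in 41.4% and YY1 letters in 37.9%. They held the SP1 letters in 55.2%, the NRF1 core in 17.2%, TATA letters in 6.90% and the longer NRF1 palindrome in 0%. Windows of all genes with such a neighbour were not counted, so these shares have no background.

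**Figure D3:**
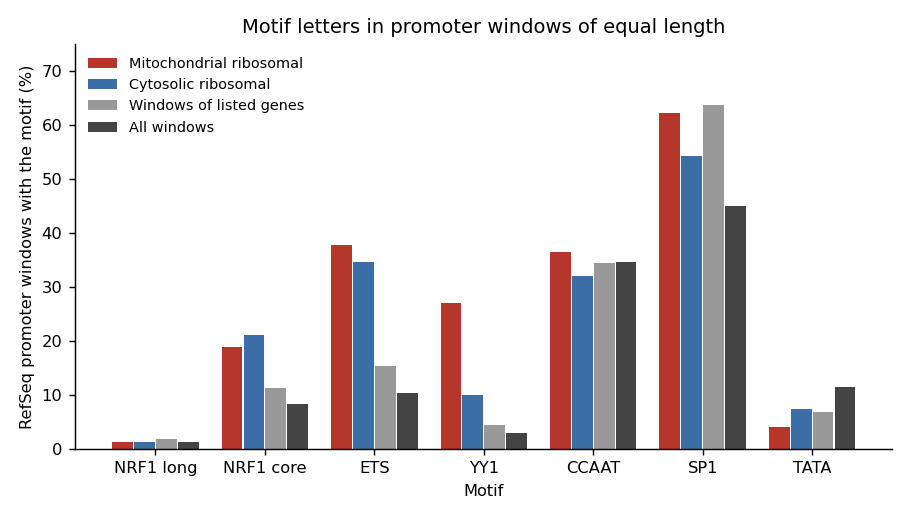
Share (%) of RefSeq promoter windows of equal length that hold each motif on either strand, for 74 windows of members, 81 of cytosolic ribosomal protein genes, 14692 of listed genes and all 35116. The YY1 bars read 27.0%, 9.88%, 4.44% and 2.89% in that order, and the SP1 bars of members and listed genes are 62.2% and 63.7%.

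Most of the YY1 letters lay just after the start. There were 19 distinct sites in 18 genes, with a site in 2 windows of a gene counted once, at the nearer RefSeq start. Of these, 13 began after the start and 15 were on the gene's own strand. Their median position was 14 bases after the start, and they ranged from 222 bases before it to 36 after. Of 21 matched members with a head-to-head neighbour, 9 held a match, against 18 of all 60 matched members. The stretches below show 8 of the sites with the motif in capitals and 10 bases on each side, on the member's strand in GRCh38.p14. The first 6 belong to members with a head-to-head neighbour and the last 2 do not.
MRPL49, chr11:65122334-65122361, plus strand: gtagcaggtaAAGATGGCagctaccatg
MRPL50, chr9:101398578-101398605, minus strand: gatctcatcgAAGATGGCggcgcgatct
MRPL51, chr12:6493224-6493251, minus strand: ggtaaggcccAAGATGGCtgtcttcgcc
MRPS7, chr17:75261888-75261915, plus strand: gtggccagccAAGATGGCtgcccccgca
MRPS18B, chr6:30617853-30617880, plus strand: ggcgtacgtcAAGATGGCggcgtctgta
MRPS27, chr5:72320207-72320234, minus strand: ggtacgctccAAGATGGCtgcctccata
MRPL20, chr1:1407261-1407288, minus strand: cgacccgggcAAGATGGCagcggcgctg
MRPS10, chr6:42217835-42217862, minus strand: cgggaccggcAAGATGGCggcgcggaca
The 8 were chosen after seeing the data, and in all of them the letters run in the direction of the gene. In MRPL32, MRPL47 and MRPS12, which also have a head-to-head neighbour, the letters run the other way and lie before the start. In MRPL32 and MRPS12 they lie beyond the RefSeq start of the neighbour, PSMA2 and SARS2, and run in the neighbour's direction. Such a site can equally be counted as the neighbour's, and the YY1 counts and shares of members include it. The motif contains the letters ATG, which can also be a start codon, and coding positions were not examined. Together, ETS or YY1 letters were found in 37 of 60 matched members, both in 7, ETS in 26 and YY1 in 18. These counts per gene were not made for all listed genes, so only the shares per window have a background.

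Members had fewer introns than the median gene, and those introns were of ordinary length. An intron here is the gap between successive exons of the isoform with the most introns. The 59 members with an intron had a median of 5 (quartiles 3 and 6, range 1 to 11), against 8 (5 and 14, range 1 to 149) in 12462 genes. The median length of their 291 introns was 1731 bases (quartiles 673.5 and 3517.5), against 1471 (473 and 3917) over all. Cytosolic ribosomal protein genes had about as few introns (median 4), and those were much shorter, with a median of 494 bases. Oxidative phosphorylation genes had a median of 4 introns, 1544.5 bases long. The median genomic span was 9337 bases in members, 4197 in cytosolic ribosomal protein genes and 29127.5 in all genes.

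Within the family, the MRPS genes had a median of 5 introns and the MRPL genes 4.5, with median lengths of 1934 and 1573 bases. Members marked as without a bacterial homolog had a median intron of 2375 bases, and those marked as with one 1396 bases, with medians of 4 and 5 introns. The first introns of members had a median of 1249 bases and the later ones 1832.5, whereas over all genes the first introns were longer (2984.5 against 1400). The first intron was the longest in 13 of 55 members with at least 2 introns (23.6%), against 34.4% of all such genes and 13.9% of cytosolic ribosomal protein genes. It was the longest in 8 of 35 MRPL genes and 5 of 20 MRPS genes, which are similar shares. The medians of MRPL and MRPS genes lay further apart. First introns of MRPL genes had a median of 1099 bases and the later ones 1811, while in MRPS genes the medians were 3457 and 1866. Internal exons had a median of 106.5 bases (123 over all), and the final exon of the isoform with most introns 429 bases (818 over all).

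**Figure D4:**
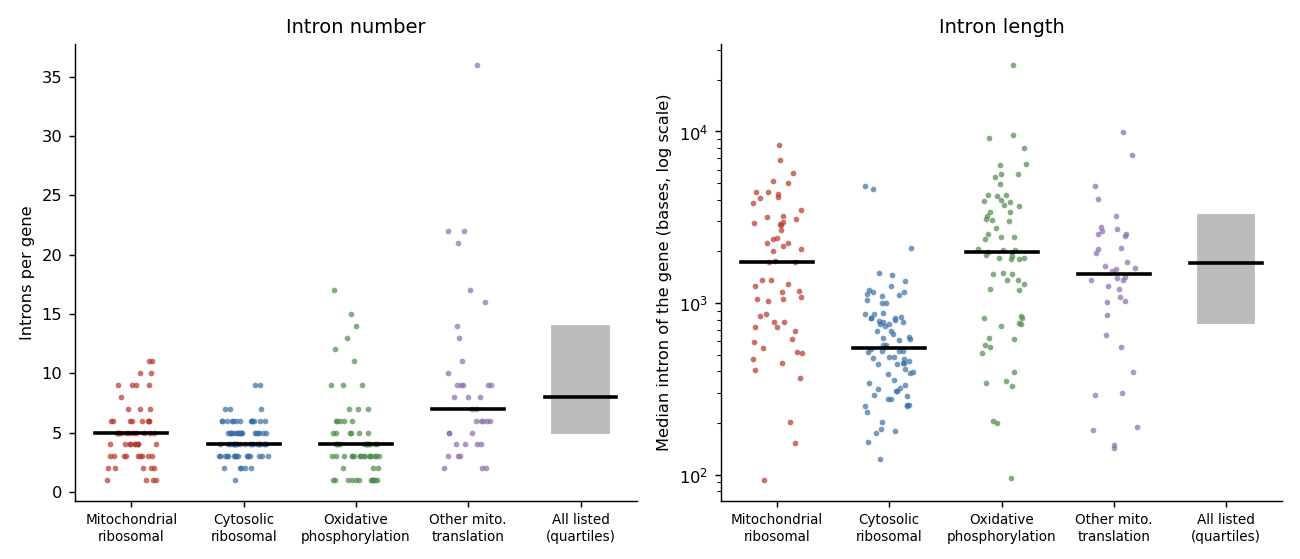
Introns per gene (left) and the median intron length of each gene (right, bases, log scale) for genes with at least 1 intron. Each point is 1 gene, black lines are medians over genes, and the grey box gives the quartiles of all 12462 genes. The members' median is 5 introns against 8 in all genes, and the cytosolic ribosomal protein genes sit lowest in intron length.

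The members with most introns were MRPL48 (chromosome 11, 73498918 to 73575650, plus strand) and MRPS5 (chromosome 2, 95752953 to 95787754, minus strand), with 11 each. MRPS9 and MRPS27, a protein with pentatricopeptide repeats, had 10 each. A single intron was listed in MRPL17, MRPL51, MRPL54 and MRPS33. The longest was the fourth of the 10 introns of MRPS27 (chromosome 5, 71515237 to 71616082, minus strand), at 57402 bases, and the next longest of that gene had 16378. Next came the eighth of 9 introns of MRPL1 (chromosome 4, 78783806 to 78873944, plus strand), at 40424 bases, and the last of the 5 introns of MRPL19, at 35716 bases. The shortest gaps were 28 bases in MRPL18 (the first of 3), 39 bases in MRPS16 (the last of 3) and 73 bases in MRPL2 (the third of 5). A gap of 28 or 39 bases is shorter than nearly all introns known in human genes, and whether it is spliced was not tested. Introns under 100 bases made up 6.19% of members' introns (5.12% over all), and introns of at least 10000 bases 6.19% (10.4% over all).

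No intron was listed for 10 members (14.5%), against 9.18% of all listed genes. Each of the 10 has at least 1 intron in a GENCODE v29 transcript, and their listed lengths of 12 to 341 bases (median 129) lie below their shortest reference transcript. They are thus parts of the genes and were left out of the intron values. They are MRPL14 (200 bases), MRPL34 (289), MRPL36 (51), MRPL41 (121), MRPL50 (137), MRPS12 (44), MRPS17 (12), MRPS21 (49), MRPS28 (251) and MRPS34 (341). Over all 1259 listed names without an intron the median length was 270 bases. Of the 291 introns of the other members, 265 (91.1%) had the length of an intron of the same gene in GENCODE v29, and in 41 of 59 members all did.

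In 2 members 3 or more introns did not match. MRPL45 (chromosome 17, 36452990 to 36479101, plus strand) had 7 introns, of which those of 1203, 7065, 11987, 1867 and 1357 bases had no counterpart in its reference gene. MRPL30 (chromosome 2, 99771419 to 99814089, plus strand) had 9 introns, 6 of them matched. Its unmatched introns of 1249 and 5530 bases had the lengths of introns of LIPT1, a lipoyl transferase gene. Its exon 3 was 19293 bases long, and the listed gene covered MITD1 on the other strand over 13381 bases. Its neighbour distance of 231 bases to TSGA10 rests on that same 5′ end, and in the reference the starts are 26114 bases apart.

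All listed alternatives lay at the 3′ end, in members as in every other gene. Over the 12462 genes with an intron, 0 had a skipped exon (0%), 0 had 2 or more first exons (0%) and 0 had an alternative donor, and all 22684 distinct isoforms shared their exons before the final one with the isoform with most introns. The zeros among members are therefore a property of the annotation, and nothing can be said of alternative starts or skipped exons in these cells. Several distinct isoforms were listed for 18 of 59 members (30.5%), against 38.6% of all genes. The share of all genes at the same intron number gives 18.29 members, so this count was at the background. Several final exons, told apart by their 5′ edge, were listed for 6 of 59 (10.2%), against 22.5% of all genes, and 9.49 members from the share at the same intron number. The share was 12.5% in cytosolic ribosomal protein genes, 10.6% in oxidative phosphorylation genes and 31.6% (12 of 38) on the list of further mitochondrial translation genes, or 9 of 34 (26.5%) without the 7 ribosomal proteins on it.

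The 6 members with several final exons were MRPL43, with 4, and MRPL9, MRPL11, MRPL19, MRPL30 and MRPS16, with 2 each. An alternative acceptor, which is a final exon with a second 5′ edge inside it, was listed for MRPL9 and MRPL11 (3.39% against 8.33% of all genes, and 4.38 members from the share at the same intron number). In MRPL11 (chromosome 11, 66194178 to 66206310, minus strand), a protein of the factor-binding stalk base, the acceptors lay 797 bases apart, at 66204380 and 66203583. With 4 ends these gave 7 isoforms, more than any other member had, and final exons from 274 to 9406 bases. In MRPL9 the acceptors lay 150 bases apart, and each was listed with 3 ends, which gave 6 isoforms with final exons from 121 to 538 bases.

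MRPL43 was the only member with a spanned intron, which is an intron covered whole by another listed exon that joins both its flanking exons (1.69% of 59, against 4.18% of all genes). The share at the same intron number gives 1.45 members, so this count too was near the background. Its 6 isoforms held 2 such introns, both of 114 bases, at 102746330 to 102746443 and 102746733 to 102746846 on chromosome 10. The isoforms that cover them count as 2 of its 4 final exons. Of the other 2, one had ends that gave 296, 702 or 957 bases, and the other, of 167 bases, followed a further exon and an intron of 2211 bases. No row marks an intron as detained, so a spanned intron is only a listed exon shape.

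In MRPL19 (chromosome 2, 75873910 to 75925122, plus strand) the final exon began at 75882190, with 2797 or 7145 bases, or at 75917760, with 7363 bases, after the intron of 35716 bases. The distant final exon overlapped 4 exons of GCFC2 on the other strand, a gene listed from 75884986 to 75937732. The near final exon ended at 75884986, an outer edge of GCFC2, or at 75889334, inside its span. The sources used here do not say whether reads were assigned by strand, so reads of GCFC2 and MRPL19 cannot be told apart where the genes overlap. MRPS16 (chromosome 10, 75006768 to 75012451, minus strand) had a final exon of 250 or 1634 bases, or one of 2309 bases behind the gap of 39 bases. MRPL30 ended in an exon of 183 bases or, after 2 more introns, in one of 473 bases.

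The other 12 members with several isoforms had 1 final exon with 2 ends (10 members) or 3 (2 members, MRPL24 and MRPL28). Their outermost ends lay from 2 bases (MRPS2) to 3433 bases (MRPL16) apart, with a median of 142.5. In 4 of them the ends were within 20 bases, and in 3 (MRPL16, MRPL22 and MRPL47) over 1000 bases apart. In MRPL16 (chromosome 11, 59570176 to 59578345, minus strand) the final exon was 697 or 4130 bases long.

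Members also met neighbours at their 3′ ends and within other genes. The span of 17 of 69 members (24.6%) overlapped another listed gene, against 18.7% of all listed genes. Of these, 9 (13.0%) overlapped a gene tail to tail, against 13.1%. In 4 of the 9 such pairs the overlap was exactly 1 base (MRPL16 with STX3, MRPL20 with RP4-758J18.2, MRPL44 with SERPINE2 and MRPS25 with NR2C2). The same held for 472 of all 902 tail-to-tail pairs (52.3%). How these ends were set was not tested. MRPL2 lay in the span of KLC4, MRPL40 in that of C22orf39 and MRPL49 in that of SYVN1, and MITD1 lay in that of MRPL30. MRPS16 overlapped DNAJC9 by 495 bases and MRPS28 overlapped TPD52 by 251 bases on the same strand.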

How the data were processed

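The authors' deposited exon annotation holds 382567 rows with exon start and end positions, and 0 columns of libraries. Its build is hg19, per the submitters' processing notes, which name the aligners STAR 2.4.1d and Bowtie 1.0.1, the quantifier RSEM, and bedtools 2.20.1 and DESeq 1.10.1, without tying a tool to this file. Successive rows of one parent formed an isoform until the order along the strand restarted (31659 isoforms). Of overlapping successive exons (10093 places) the later was kept, 76 rows whose end preceded their start were dropped, and 8975 repeated isoforms were counted once. GENCODE v29 (GRCh38) was compared by lengths and by distances within each annotation, and promoters came from RefSeq (GRCh38.p14). No test was run, as genes are not replicates, so counts stand beside the share of all genes, also within 5 bins of intron number. Members, lists and settings were chosen with earlier results of these data known. Members named by rule have a neighbour within 1000 bases (the 10 closest and the most distant), a spanned intron, most isoforms or final exons, most or fewest introns, the longest or shortest introns, or a structure that could not be placed. Other names, the printed sequences, the count of distinct YY1 sites and the split of the translation list were chosen after seeing the data. Python 3.11.15 and numpy 2.4.6 were used, and the code was tested on simulated annotation.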

Additional observations from a re-analysis of the deposited data

How the results depend on the processing

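Of 37 values recomputed under another setting, 32 stayed within 1.5 times the main value and 5 did not. Some of the 32 could not move. Both NRF1 motifs read the same on either strand, so a search of the gene's own strand gives the same counts. Isoforms of a gene share their exons before the final one, so the isoform chosen leaves the head-to-head count unchanged. With only the bases before the RefSeq start searched, YY1 letters were in 7 of 74 windows of members in place of 20, because 13 of the 19 distinct sites lie after the start. Over all windows the YY1 share fell too, from 2.89% to 1.36%. With motifs searched on the gene's own strand only, the counts were 15 for ETS (28 on both strands), 13 for CCAAT (27), 25 for SP1 (46) and 1 for TATA (3), which searches fewer letters. Over all windows the shares fell to 5.75% for ETS (from 10.3%), 19.6% for CCAAT (34.6%), 30.6% for SP1 (45.0%) and 7.33% for TATA (11.5%). The count of members with a head-to-head neighbour ranged from 18 (within 300 bases) to 29 (within 5000 bases), that of several final exons from 5 to 6, and the median intron from 1692 to 1731 bases. No paired analysis was possible because libraries have no columns in the annotation, and leaving out a library was not possible for the same reason. The listing gives no depth, so an alternative that is absent from it may be present in the cells.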
